A study of Mus musculus with 2 samples.

Results

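Fibulins and other proteins of the elastic fibre were examined in the suprachiasmatic nucleus (SCN), the paired hypothalamic nucleus that sets circadian time in mammals. The set holds 10 genes: the short fibulins Fbln5, Efemp1 (fibulin-3) and Efemp2 (fibulin-4), the long fibulins Fbln1 and Fbln2, the elastin gene Eln, the fibrillins Fbn1 and Fbn2, and the latent TGF-beta binding proteins Ltbp1 and Ltbp4. They were selected by name around Fbln5, and Fbln5 itself was chosen from its higher count in these same libraries, so the values below describe the set and test nothing. All 10 were found among the 24229 rows of the deposited gene table. All of them also had a mean normalised count of at least 50, the minimum set for a measured gene, which 14343 genes reached.

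Both groups were wild-type C57BL/6 mice, sampled at postnatal day 68. All 16 mice first spent 7 days in constant darkness and were then divided into 2 groups of 8. One group was entrained to a normal T-cycle (NT), a light-dark schedule of set length, and the other to a short T-cycle (ST), for 4 weeks in each case. The mice then returned to darkness, brains were collected after 5 days at circadian time 4 h, and polyadenylated RNA of the dissected SCN was sequenced. How long the T-cycles were, and how many mice stand behind a library, is not given in the sources used here. There is 1 library per group, so ratios compare these libraries and carry no replicate error. Intervals are 95% counting intervals throughout and cover counting error only. They narrow as counts rise, so the share of genes with an interval on one side of 1 depends on depth. PCR copies of 1 molecule cannot be recognised, so the intervals may be too narrow even for that error. The libraries held 19476800 (ST) and 24790727 (NT) counts. All 12 SCN markers, led by Avp and Vip, were measured, with a summed level of 1404 RPM, a deposited level per library total, in ST and 1355 RPM in NT.

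Elastic fibres give arteries, skin, lung and the coverings of the brain their recoil. Fibrillins build a microfibril scaffold on which elastin is laid down, and fibulin-4 and fibulin-5 bring elastin and the cross-linking lysyl oxidases together. LTBPs hold latent TGF-beta in the same matrix. In the brain, such genes are mostly associated with vessels and meninges, although some are also made by neurons and glia.

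Fbln5 encodes fibulin-5, a secreted protein that binds elastin, lysyl oxidase-like 1 and cell-surface integrins. It had 1065 counts in ST and 817 in NT, although ST was the shallower library. Its deposited level, in reads per kilobase of gene and per library total (RPKM), was 22.1 in ST (interval 20.8 to 23.5) and 13.3 in NT (12.4 to 14.3), so the levels did not overlap within counting error. On normalised counts it was 1.65-fold higher in ST (1.5 to 1.8), a log2 ratio of 0.72. This was the 19th highest ratio of the 14343 measured genes. The authors' deposited table gives Fbln5 a log2 fold change of 0.72 with an adjusted p of 0.000101, made from 1 library per group. Fbln5 is the single member among the 57 rows of that table at an adjusted p of 0.1 or less.

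The opposite end of the set was another short fibulin. Efemp1, or fibulin-3, is a secreted protein of basement membranes and connective tissue. It had 57 counts in ST and 143 in NT, with RPKM of 1.44 (1.09 to 1.87) and 2.85 (2.40 to 3.35). The NT level lay above the ST level with no overlap of the intervals. On normalised counts Efemp1 was 1.99-fold lower in ST (1.45 to 2.75), a log2 ratio of -0.99, the 36th lowest of the measured genes. The authors' deposited table gives it a p of 0.000854 and an adjusted p of 0.292.

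Because Fbln5 and Efemp1 mark the ends of the range, the 250 bases before their annotated starts are shown. The sequences are those of RefSeq, whose table had entries for 8 of the 10 genes and is built on GRCm38. Each window was placed in NCBIM37, the assembly also called mm9 and used for the deposited coordinates, by its single exact match on the chromosome. The Fbln5 window lies at chr12:103057330-103057579 on the minus strand and the Efemp1 window at chr11:28752955-28753204 on the plus strand. Letters run 5′ to 3′ in the direction of transcription, and capitals mark GC boxes.
Fbln5: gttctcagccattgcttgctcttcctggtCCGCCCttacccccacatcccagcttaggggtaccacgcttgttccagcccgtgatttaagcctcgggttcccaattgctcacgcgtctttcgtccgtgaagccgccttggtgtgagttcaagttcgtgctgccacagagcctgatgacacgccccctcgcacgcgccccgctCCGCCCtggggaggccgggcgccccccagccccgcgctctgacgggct
Efemp1: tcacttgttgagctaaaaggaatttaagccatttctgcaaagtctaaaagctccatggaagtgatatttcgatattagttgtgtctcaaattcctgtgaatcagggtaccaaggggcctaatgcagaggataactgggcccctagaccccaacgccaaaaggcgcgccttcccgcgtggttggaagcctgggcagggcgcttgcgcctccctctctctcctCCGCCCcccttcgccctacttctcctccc
Fbln5 thus has 2 GC boxes, 221 and 48 bases before the start, in a window of 65.2% G and C, whereas Efemp1 has 1, at 29 bases, in a window of 53.6%. A second RefSeq start of Fbln5 has none.

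For all 15 windows of the members, 3 motifs were searched on both strands. The GC box (GGGCGG, or CCGCCC on the other strand), bound by Sp1-type factors, was in 11 of 15. Of the 32851 windows of this length outside chromosome 18, 32.7% had it. The E-box CACGTG, bound by the clock activators CLOCK and BMAL1, was in 2 windows, which overlap and both belong to Fbln1, against 6.02% of the 32851. The cAMP response element TGACGTCA was in 1, a window of Ltbp1, against 1.55%. The last pair of motifs read the same on both strands, and none of their matches overlapped another motif. Windows of 1 gene overlap in part, so these counts are not independent, and a match describes letters only.

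The third short fibulin, Efemp2, or fibulin-4, is needed for elastin assembly and for lysyl oxidase to act on it. It had 302 counts in ST and 432 in NT. Its RPKM was 9.17 (8.16 to 10.3) in ST and 10.3 (9.36 to 11.3) in NT, with overlapping intervals. The ratio on normalised counts was 0.882 (0.759 to 1.02), a log2 ratio of -0.18 whose interval held 1.

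The make-up of the short fibulins can be given without scaling the libraries to each other. Fbln5 supplied 74.8% of the short fibulin counts in ST (72.4% to 77.0%, exact binomial interval of 1065 in 1424) and 58.7% in NT (56.1% to 61.3%, 817 in 1392). Efemp2 supplied 21.2% in ST (19.1% to 23.4%) and 31.0% in NT (28.6% to 33.5%). Efemp1 supplied 4.00% in ST (3.05% to 5.16%) and 10.3% in NT (8.73% to 12%). Shares of 1 sum are not independent, so the smaller share of Efemp2 in ST follows from the larger one of Fbln5 and says nothing more about Efemp2, whose own ratio held 1. Set directly against each other, the ST to NT ratio of Fbln5 was 3.27 times that of Efemp1 (2.37 to 4.50) and 1.86 times that of Efemp2 (1.57 to 2.22), with intervals from the normal approximation on log counts. Fbln5 was chosen on this contrast and each group has 1 library, so these values are a description.

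**Figure D1:**
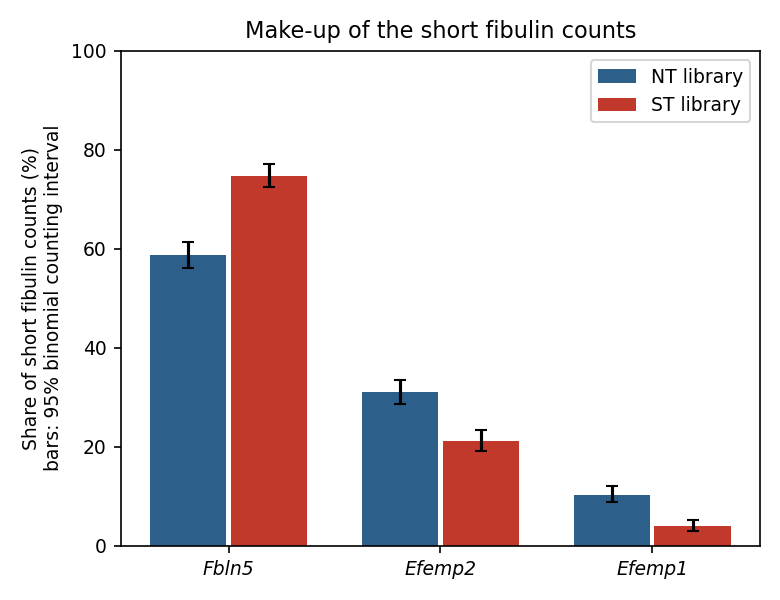
Share of the summed counts of Fbln5, Efemp2 and Efemp1 (%, bars from 0) that each gene supplied in the NT library (blue) and the ST library (red), with 95% exact binomial intervals. Fbln5 supplied 58.7% of the counts in NT and 74.8% in ST. The 3 shares sum to the whole and are not independent, and Efemp1 was also 1.99-fold lower in ST on its own normalised counts.

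The long fibulins were both lower in ST by a small amount. Fbln1, a fibulin of basement membranes and vessel walls that also binds fibronectin, had 208 counts in ST and 315 in NT, and 4.09 against 4.86 RPKM. Its ratio on normalised counts was 0.833 (0.696 to 0.996), so that the interval ended just below 1. Fbln2, which bridges basement membranes and elastic fibres, had 94 counts in ST and 138 in NT, and 0.824 against 0.951 RPKM. Its ratio was 0.860 (0.654 to 1.13), an interval that held 1.

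Elastin itself was also lower. Eln encodes tropoelastin, the soluble monomer of the elastic core. It had 135 counts in ST and 217 in NT, and 1.85 RPKM (1.55 to 2.19) against 2.34 (2.04 to 2.67). These level intervals overlapped, but that of the ratio on normalised counts, 0.785 (0.629 to 0.978), did not reach 1. Neither Eln nor Fbln1 is among the rows of the authors' deposited table at an adjusted p of 0.1 or less. The log2 ratio was -0.35.

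The scaffold genes were close to equal. Fbn1, the main fibrillin of adult microfibrils, had 186 counts in ST and 250 in NT after rounding, with a ratio of 0.939 (0.772 to 1.14). Its counts were fractional, and in the annotation 2442 of its exonic bases overlap Gm9913 on the opposite strand. Whether reads were counted by strand is not given in the sources used here, so the Fbn1 value is less certain. Fbn2, a fibrillin most active in development, had 153 counts in ST and 208 in NT, with a ratio of 0.928 (0.748 to 1.15). Both intervals held 1, and the summed counts of the fibrillins gave 0.934 (0.809 to 1.08). The other 9 members overlapped no annotated exon of another gene and had whole counts in both libraries.

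The LTBPs had the highest and the lowest counts of the set. Ltbp4, which binds latent TGF-beta and directs fibulin-5 to microfibrils, had 1547 counts in ST and 2036 in NT, and 12.4 against 12.8 RPKM. Its ratio of 0.959 (0.897 to 1.03) was the closest to 1 among the members and its interval the narrowest. Ltbp1, which tethers latent TGF-beta to fibrillin, had 46 counts in ST and 70 in NT, and 0.223 against 0.267 RPKM. At this depth its ratio of 0.829 had an interval from 0.559 to 1.22.

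Levels between genes can be ordered only per length. In ST the order of RPKM was Fbln5, Ltbp4, Efemp2, Fbln1, Eln, Efemp1, Fbln2, Fbn1, Fbn2 and Ltbp1. The NT order differed in 1 place, with Efemp1 before Eln, and the intervals of these neighbours overlapped in both libraries. Fbln2, Fbn1 and Fbn2 could not be ordered either. Fbln5 and Ltbp4 had overlapping intervals in NT (13.3 and 12.8 RPKM) but were apart in ST (22.1 and 12.4). Fbln5 made up 27.0% of the summed RPKM of the members in NT and 41.2% in ST. Among all rows of the table, Fbln5 lay at percentile 85.9 of RPKM in ST and Ltbp1 at percentile 24.3. RPKM depends on the length the authors divided by. That length was 2.47 kb for Fbln5, where the annotation joins exons of 5.83 kb, and 3.74 kb against 2.58 kb for Eln, so levels between genes carry this uncertainty while the ratios of 1 gene between libraries do not.

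**Figure D2:**
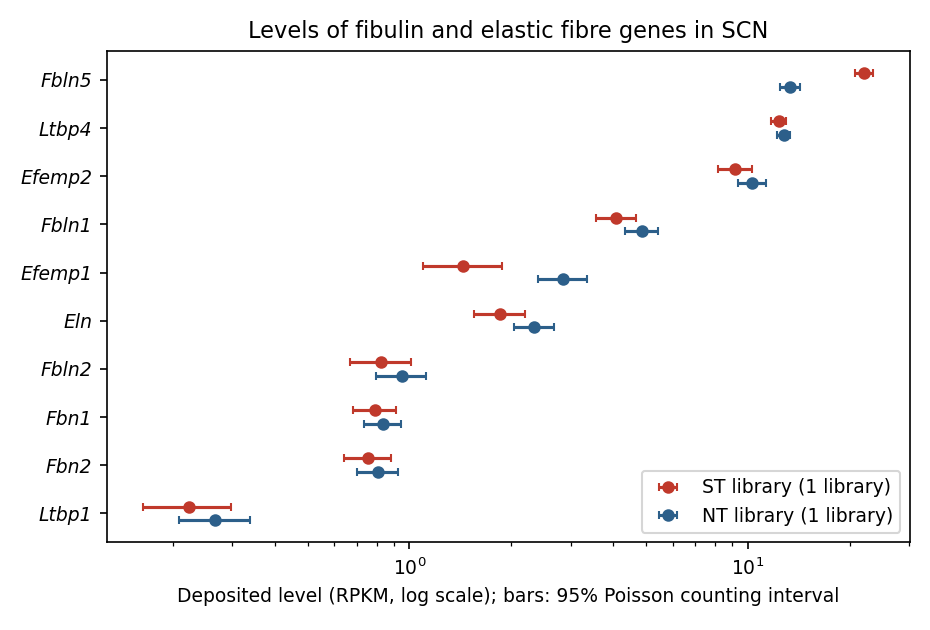
Deposited level (RPKM, log axis) of each member in the ST library (red) and the NT library (blue), with 95% Poisson counting intervals. The levels run from 0.223 RPKM for Ltbp1 in ST to 22.1 RPKM for Fbln5 in ST, and the paired intervals are apart for Fbln5 and Efemp1.

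Over the set, 1 member was higher in ST and 9 were lower, where all measured genes were lower in 50.9% of cases. No member reached 2-fold in either direction, a size that 0.0209% of measured genes reached on the higher side and 0.23% on the lower. At least 1.5-fold higher was 1 of 10, Fbln5, beside 0.314% of measured genes, and at least 1.5-fold lower was 1 of 10, Efemp1, beside 0.865%. At least 1.2-fold higher was again Fbln5 (background 3.35%), and at least 1.2-fold lower were 3, Efemp1, Eln and Ltbp1 (background 6.11%). The counting interval lay wholly above 1 for Fbln5 (background 7.79%) and wholly below 1 for 3 members, Efemp1, Eln and Fbln1 (background 10.2%). It held 1 for the other 6. Since Fbln5 was picked on this contrast, nothing is read from its place in these counts.

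The direction of the summed set turned on Fbln5. Summed over all 10 members, counts were 3793 in ST and 4626 in NT, a ratio of 1.03 after scaling (0.991 to 1.08). Without Fbln5 they were 2728 and 3809, a ratio of 0.904 (0.860 to 0.95). The median log2 ratio of the 10 genes was -0.20, while that of all measured genes was -0.00244. The ST to NT ratio of Fbln5 exceeded those of the other 9 members by 1.72 times for Ltbp4 (1.53 to 1.92) up to 3.27 times for Efemp1. Because Fbln5 was chosen on this contrast, its excess over the other members is a description only.

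**Figure D3:**
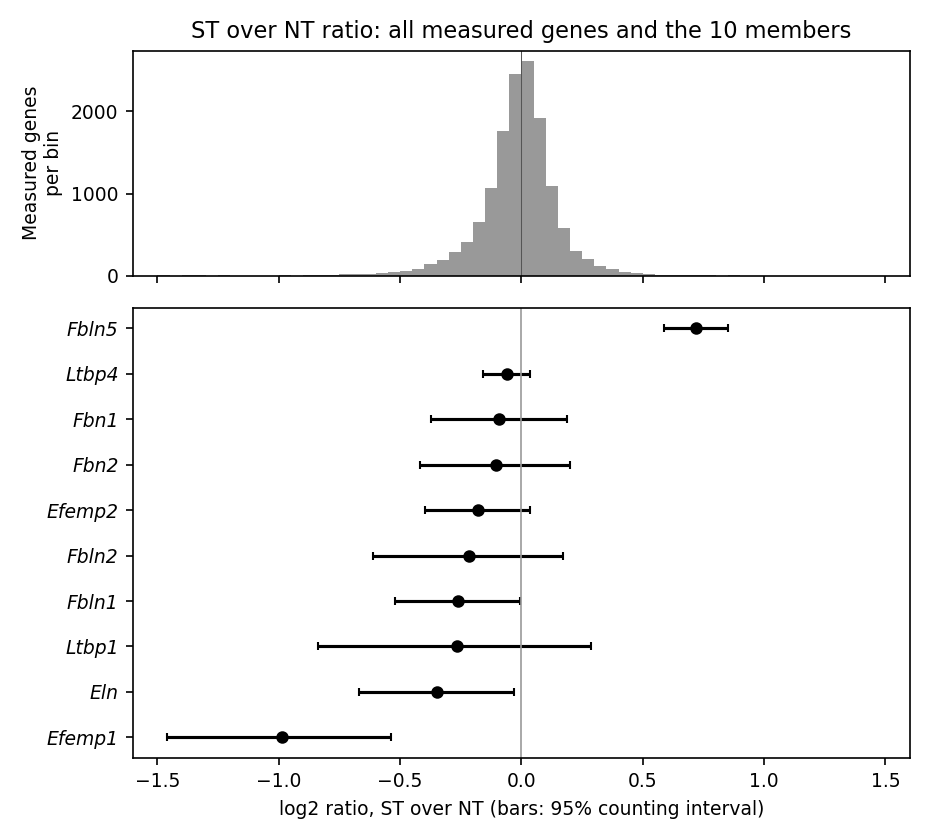
Log2 ratio of ST over NT for all measured genes (upper panel, genes per bin of the ratio, with values beyond the axis placed in the end bins) and for the 10 members with 95% counting intervals (lower panel). Fbln5 at 0.72 and Efemp1 at -0.99 lie in the thin tails of the distribution, and the other 8 members lie between -0.35 and -0.06.

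Genes next to Fbln5 on chromosome 12 (gene body 102988153 to 103057298 in mm9, minus strand) were then read. The nearest measured gene, Trip11, begins 18.5 kb away and had 792 counts in ST and 1051 in NT, a ratio of 0.951 (0.866 to 1.04). Atxn3 had a ratio of 0.971 (0.849 to 1.11) and Cpsf2 of 1.002 (0.928 to 1.08). On the other side, beyond a gap of 666 kb without a measured gene of ordinary symbol, Smek1 had 0.995 (0.922 to 1.07) and Ccdc88c 1.03 (0.926 to 1.14). The intervals of these 5 genes held 1. Trip11, Smek1 and Ccdc88c had fractional counts.

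**Figure D4:**
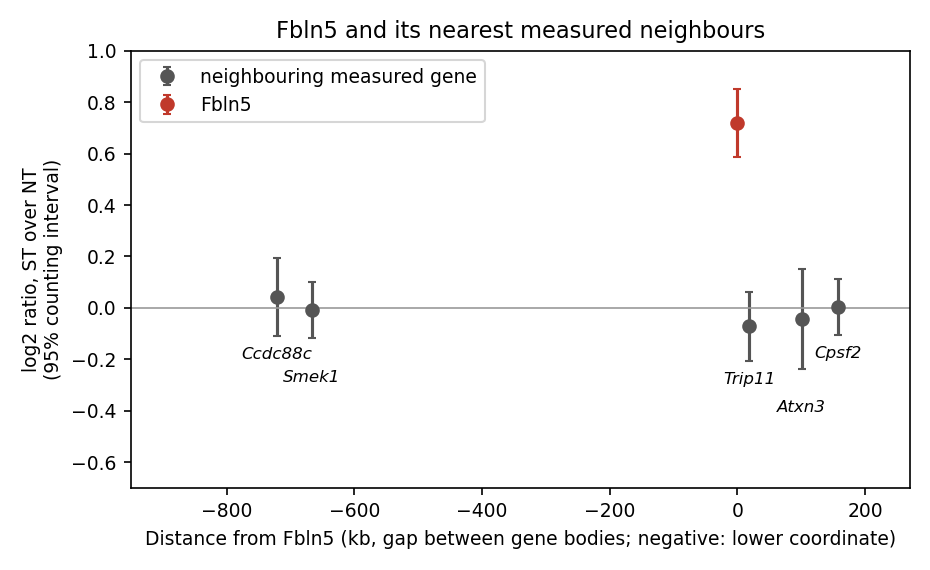
Log2 ratio of ST over NT (95% counting interval) against the distance in kb from Fbln5 for the 5 neighbouring genes named here. They lie between -0.07 and 0.04, and Fbln5 stands at 0.72.

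With 2 libraries, likeness to Fbln5 means only a similar ratio. Among 3092 genes with whole counts, an ordinary symbol and a mean normalised count within 2-fold of that of Fbln5, none had a ratio as high. Fbln5 was chosen for its higher count in ST, so nothing is read from this. Over all 14343 measured genes its ratio was the 19th highest, so genes with higher ratios lay outside this group. Nearest were the activity-induced transcription factor gene Fos at a log2 ratio of 0.63 (1953 counts in ST against 1592 in NT) and the corepressor gene Hr at 0.55 (872 and 749). The nuclear receptor gene Nr4a1, at 0.38 (988 and 961), was also among the 5 nearest.

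Other genes of the elastic fibre and its TGF-beta system were taken from lists by role. They held 54 gene symbols outside the set, with Ctgf also counted under its newer symbol Ccn2. Of these symbols, 51 were in the table and 38 were measured, of which 5 were higher and 33 lower in ST (median log2 ratio -0.09). None reached 2-fold. The single gene past 1.5-fold, named after its value was seen, was Mmp2, a metalloproteinase of fibroblasts, at 69 counts in ST and 133 in NT (ratio 0.655, 0.482 to 0.882). The interval was wholly above 1 for 2 of the 38 (background 7.79%) and wholly below 1 for 9 (background 10.2%), and 50.9% of all measured genes were lower.

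Remaining fibulin and LTBP relatives all had fewer normalised counts in ST, within counting error. Fbln7, a cell-adhesive fibulin, had 164 counts in ST and 222 in NT, with a ratio of 0.932 (0.757 to 1.15). The hemicentin Hmcn1, a giant fibulin, had 43 and 73 counts, with a ratio of 0.743 (0.498 to 1.10), and Hmcn2 was under the count minimum with 39 and 55. Ltbp3, at 17.2 RPKM in ST and 17.3 in NT, had a ratio of 0.983 (0.923 to 1.05) from fractional counts. Ltbp2 had 6 counts in ST and 10 in NT.

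Microfibril-associated genes went both ways. Mfap2, a small glycoprotein on fibrillin microfibrils, had 126 counts in ST and 122 in NT, a ratio of 1.30 (1.01 to 1.69), the lone measured member of this list above 1. Emilin2, of the elastin interface, had 98 and 151 counts, a ratio of 0.819 (0.629 to 1.06). Those below the count minimum were Emilin1 with 26 counts in ST and 64 in NT (ratio 0.513, 0.312 to 0.821), Mfap5 with 6 and 11, and Mfap4, with 2 and 23 (ratio 0.110, 0.0125 to 0.444), whose counts are fractional.

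The lysyl oxidases, which cross-link elastin, were scarce. Loxl1, the partner of fibulin-5, had 56 counts in ST and 77 in NT, a ratio of 0.918 (0.639 to 1.31), and Loxl3 had 182 and 253, a ratio of 0.908 (0.746 to 1.10). Lox had 1 and 3 counts, Loxl2 had 16 and 27, and Loxl4 had 5 and 8, all under the count minimum. The intervals of both measured cross-linking genes held 1.

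Receptors and partners of fibulin-5 had 9 measured genes of 10, with 1 higher, 8 lower and every interval holding 1 (median -0.09). The integrin subunit Itgb1 had 2020 counts in ST and 2695 in NT, a ratio of 0.946 (0.893 to 1.003). Itgb5, which pairs with the alpha-v subunit, had 849 and 1171, a ratio of 0.915 (0.837 to 1.0004). Ltbp4, in this list too, is given above.

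TGF-beta ligands, receptors and activators had 11 measured genes of 14 listed, with 1 higher and 10 lower (median -0.12). The interval was below 1 for 4 of the 11 (background 10.2%). The integrin subunit Itgb8, which activates latent TGF-beta, had a ratio of 0.937 (0.891 to 0.985), the receptor Tgfbr1 0.942 (0.853 to 1.04) and the co-receptor Eng of endothelium 0.831 (0.727 to 0.949). Among 8 measured genes that respond to TGF-beta, 2 were higher and 6 lower (median -0.03), with Bhlhe40 at 0.993 (0.926 to 1.06), Id1 at 0.961 (0.782 to 1.18) and Pmepa1 at 0.894 (0.804 to 0.993).

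Proteases that can cut elastin and their inhibitors had 6 measured genes of 10, all lower (median -0.17). The interval was below 1 for 4 of the 6 (background 10.2%). The inhibitor Timp2 had a ratio of 0.967 (0.945 to 0.990), the lysosomal protease Ctsl 0.953 (0.903 to 1.01) and the microglial protease Ctss 0.846 (0.779 to 0.918). With 12549 counts in ST and 16380 in NT, the interval of Timp2 lay below 1 at a small difference. Mmp12, macrophage elastase, had 0 counts in ST and 2 in NT.

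Markers of vessels and coverings were mostly lower in ST, as were the oligodendrocyte and microglial markers given below. Of 13 leptomeningeal and fibroblast markers 10 were measured, all lower in ST (median -0.73). The interval was below 1 for 8 (background 10.2%), and 7 were at least 1.5-fold lower (background 0.865%). The summed level of the 13 was 161 RPM in ST and 232 RPM in NT. It was led by Pdgfra at 13.2 and 14.8 RPKM, which oligodendrocyte precursors also express, and Igf2 at 4.82 and 9.43. Smooth muscle and pericyte markers had 8 of 10 measured, 6 lower and 2 higher (median -0.27), and summed to 162 RPM in ST and 197 RPM in NT. All 10 endothelial markers were lower (median -0.32), with sums of 337 and 385 RPM. The interval was below 1 for 5 of the 8 measured smooth muscle and pericyte markers and 8 of the 10 endothelial markers, and above 1 for none. No marker of these 3 lists was at 0 in either library. In bulk tissue, fewer cells of a type and less RNA per cell cannot be told apart. The part of these cells in the lower counts of Efemp1, Eln, Fbln1 and the others was not tested.

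The other marker lists had medians between -0.30 and 0.08. Astrocyte markers had 6 of 8 lower (median -0.08, sums of 4381 RPM in ST and 4539 in NT), and neuronal markers 5 of 7 (median -0.05, 4155 and 4238 RPM). Ependymal and tanycyte markers were split 3 and 3 (median 0.00018, 259 and 264 RPM), and the 2 measured choroid plexus markers were both higher (median 0.08, 33.5 and 31.0 RPM over the 6 listed). The choroid plexus transthyretin gene Ttr, under the count minimum and named after its values were seen, went the other way with 18 counts in ST and 48 in NT (ratio 0.473, 0.259 to 0.829). Of the other listed choroid plexus markers under the minimum, Folr1 (32 counts in ST and 24 in NT) and Aqp1 (9 and 8) were higher on normalised counts. Their intervals held 1. Otx2 had 1 count in ST and 2 in NT. All 8 oligodendrocyte markers (median -0.30, 4728 and 5844 RPM) and all 8 microglial markers (median -0.27, 269 and 315 RPM) were lower. SCN markers had 5 of 12 higher (median -0.07). Across these lists the interval was below 1 for 8 oligodendrocyte, 7 microglial, 6 astrocyte, 3 neuronal, 3 SCN and 2 ependymal and tanycyte markers (background 10.2%). It was above 1 for 4 SCN markers, 1 astrocyte marker and 1 neuronal marker (background 7.79%). Many of these markers have high counts, which put small differences outside the interval. The neuronal gene Gad2, with 18407 counts in ST and 24034 in NT, had a ratio of 0.967 (0.948 to 0.985). These numbers of intervals are therefore not read against the background. The medians of all marker lists ran from -0.73 to 0.08.

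**Figure D5:**
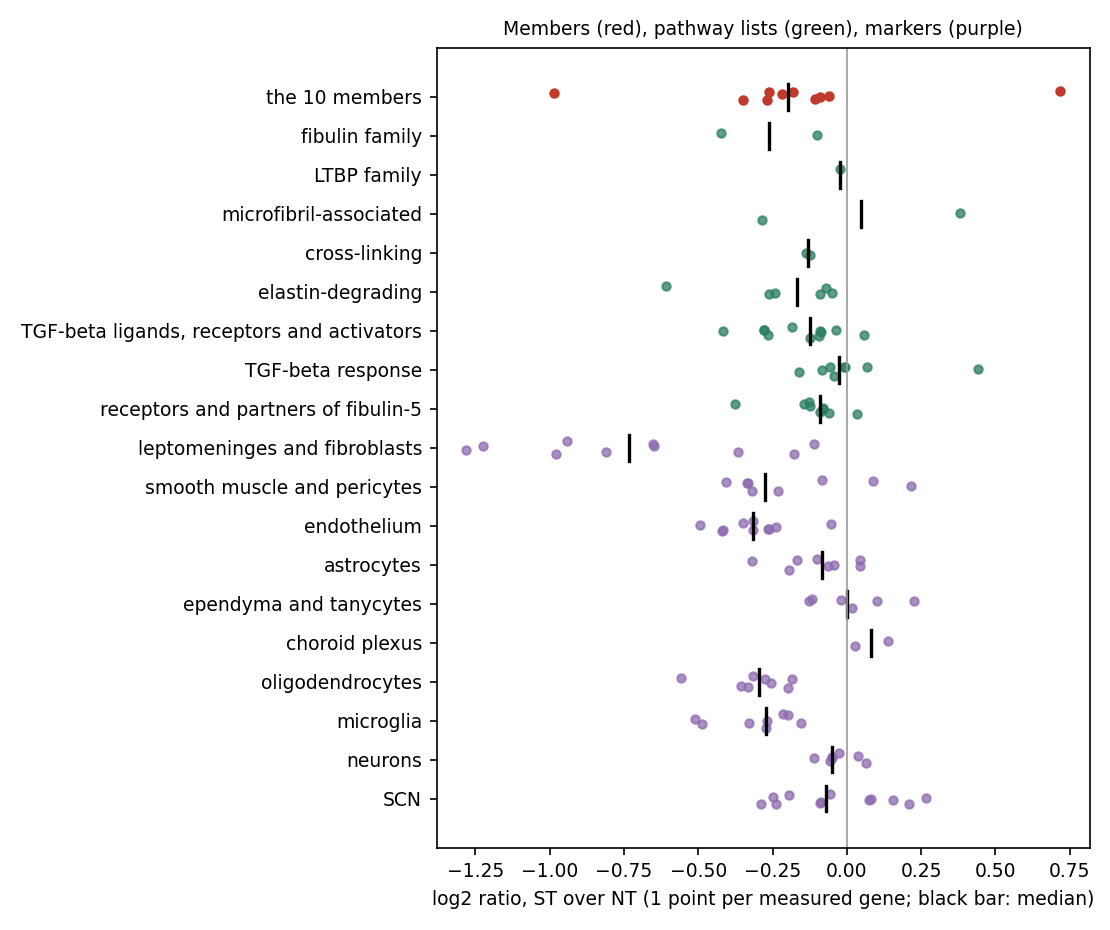
Log2 ratio of ST over NT for each measured gene (points, spread vertically only for legibility) of the 10 members (red), the pathway lists (green) and the cell type marker lists (purple), with the median of each list as a black bar. Fbln5 is the red point at 0.72, and the leptomeningeal and fibroblast markers have the lowest median at -0.73.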

How the data were processed

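Polyadenylated RNA of dissected SCN was sequenced in 1 ST and 1 NT library, grouped by sample title. CASAVA 1.8.2, TopHat 1.2, DESeq and build mm9 are listed without roles, per the submitters' processing notes. The counter is not given in the sources used here. For each library, the authors deposited estimated counts, RPKM values and RPM values, per the file headers, with their own fold change (a ratio), its log2 and its p-value for ST over NT. A further 3 columns of means were not used. Counts were fractional (tolerance 1e-06) for 42.4% of genes in ST and 43.1% in NT, so they were rounded.

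Size factors by the median of ratios were 0.89 for ST and 1.12 for NT. Ratios are of normalised counts, and log2 ratios add a pseudocount of 0.5. Intervals are exact Clopper-Pearson intervals of the share of a gene's counts that fell in ST, turned into ratios, at a level of 95%. With 1 library per group no test was run, and size rules of 2-fold, 1.5-fold and 1.2-fold stand in its place. The calculations were tested on simulated data. Members, lists and rules were chosen with earlier results of these data known. Genes named outside the set are all relatives, microfibril-associated and cross-linking genes, the 3 most abundant measured genes of the other pathway lists and at most 2 of a marker list, 3 neighbours of Fbln5 on either side and the 5 genes nearest to its ratio. A few genes that these rules name are not reported here. Mmp2, Mmp12, Ttr, Folr1, Aqp1 and Otx2 are named outside these rules, after their values were seen. Positions were checked against GENCODE vM1 on NCBIM37. Alternatives were total-count and TMM scaling (edgeR 4.0.16), a pseudocount of 5, filters of 10 and 200 or none, whole counts only and RPKM plus 0.1. Tools were Python 3.11.15, numpy 2.4.6, pandas 2.3.3, scipy 1.17.1, matplotlib 3.10.9 and R 4.3.3.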

Additional observations from a re-analysis of the deposited data

How the results depend on the processing

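No paired analysis was possible because there was a single library of either kind, which also left no replicate to drop. All 74 values of the members' log2 ratios under the other settings stayed within their counting intervals, and Fbln5 was the one member higher in ST under each of them. The filters and the restriction to whole counts cannot alter the ratio of a gene they keep, so they repeat the main value. Only the other scalings, the pseudocount and the deposited RPKM could move a member's ratio. With a filter of 200 there were 5 members left, of which 4 were lower in ST. Past 2-fold there were 3 measured genes on the higher and 33 on the lower side, which became 58 and 126 with a filter of 10, 1 and 18 with a filter of 200, 1249 and 1705 with no filter, and 1 and 12 with whole counts only. A pseudocount of 5 and the deposited RPKM plus 0.1 each left 1 gene on the higher side. At 1.5-fold the numbers were 45 and 124, at 1.2-fold 481 and 876, and by intervals wholly on one side of 1 they were 1118 and 1467. Of 149 medians of pathway and marker lists and of the set, 4 went outside the span from the median lower to the median upper interval bound of the list's genes: the LTBP relatives to -0.20 with no filter (2 genes), elastin-degrading genes to -0.34 with whole counts only (2 genes), and the microfibril-associated genes, at 0.05 over 2 genes, to -0.62 with a filter of 10 (4 genes) and -0.51 with no filter (5 genes). Shifts of like size within wider spans were those of the cross-linking genes, from -0.13 to -0.32 with no filter, and of the leptomeningeal and fibroblast markers, from -0.73 to -0.91 with a filter of 10 or none. Each of these medians rests on a different number of genes, by construction of the setting. Total-count scaling shifted the median of all genes to 0.0098. Depth limits Ltbp1 most, with 46 and 70 counts, and then Efemp1, with 57 and 143.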
